A study of Mus musculus with 9 samples.

Results

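Jchain, Mzb1, Cd79a and Irf4 are genes of antibody-secreting plasma cells and of B cells that lie outside the immunoglobulin loci. They were taken by gene name from the deposited kidney tables, and all 4 were found among the 489 distinct genes listed there. Each of the 4 stood in the table of genes called for young against old mice (389 genes), and 0 of them stood in the table called for 3HB against old mice (113 genes). The kidneys came from male ICR mice, an outbred stock, with 3 mice in each group. Young mice were 2 months old and old mice were 20 months old, both without treatment. The 3HB mice were also 20 months old and had received 3-hydroxybutyrate as its sodium salt at 1 g/L in the drinking water from 11 months of age. RNA was taken from kidney tissue, so a higher value can come from more cells of a kind or from more RNA per cell, and these cannot be told apart. The values are normalized per gene by the authors as TPM or FPKM, with 2 decimals, and which of both was used is not stated in the sources used here.

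B cells carry an antibody on their surface as part of the B cell receptor, and after activation some of them become plasma cells, which secrete antibody in large amounts. The J chain links antibody units into the dimers of IgA and the pentamers of IgM, and it lets them be carried across epithelia. Mzb1 is a resident of the endoplasmic reticulum that assists the assembly and secretion of antibody. Cd79a is a signalling chain of the B cell receptor. Irf4 is a transcription factor needed for plasma cell formation, and it also acts in T cells and myeloid cells. In the healthy kidney, B cells and plasma cells are a minor population beside the epithelium.

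The 4 genes lie on different chromosomes. In GENCODE mouse release 21 on GRCm38, the build in the submitters' processing notes, Jchain (ENSMUSG00000067149) spans positions 88519809 to 88527891 of chromosome 5 on the minus strand. Cd79a (ENSMUSG00000003379) spans 24897381 to 24902197 of chromosome 7 on the plus strand. Irf4 (ENSMUSG00000021356) spans 30749226 to 30766976 of chromosome 13 on the plus strand. No other annotated gene overlaps these 3. Mzb1 (ENSMUSG00000024353) overlaps 1 protein-coding gene on its own strand, SPATA24, so reads in the shared stretch could be assigned to either.

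RefSeq promoter windows (GRCm38.p6, 250 bases before to 50 after the start of the gene) were matched by symbol for Jchain, Cd79a and Irf4. They are shown because these genes had higher values together in the mice of 20 months. The windows are chr5:88527848-88528147 on the minus strand, chr7:24897247-24897546 on the plus strand and chr13:30748983-30749282 on the plus strand, written 5′ to 3′ along the gene. Capitals mark the E-box letters CAGGTG and the ETS letters GAGGAA on either strand.
Jchain: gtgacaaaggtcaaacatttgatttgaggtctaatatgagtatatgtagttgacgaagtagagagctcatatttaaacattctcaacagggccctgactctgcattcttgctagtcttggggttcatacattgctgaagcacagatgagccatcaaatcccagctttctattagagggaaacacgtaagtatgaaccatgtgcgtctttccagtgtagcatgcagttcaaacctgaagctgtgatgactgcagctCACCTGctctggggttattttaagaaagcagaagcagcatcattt
Cd79a: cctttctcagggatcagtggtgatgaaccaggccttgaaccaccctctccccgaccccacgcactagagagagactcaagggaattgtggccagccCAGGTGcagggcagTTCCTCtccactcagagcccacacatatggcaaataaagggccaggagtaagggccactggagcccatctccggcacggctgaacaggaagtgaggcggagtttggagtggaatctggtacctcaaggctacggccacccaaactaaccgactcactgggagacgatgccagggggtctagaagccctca
Irf4: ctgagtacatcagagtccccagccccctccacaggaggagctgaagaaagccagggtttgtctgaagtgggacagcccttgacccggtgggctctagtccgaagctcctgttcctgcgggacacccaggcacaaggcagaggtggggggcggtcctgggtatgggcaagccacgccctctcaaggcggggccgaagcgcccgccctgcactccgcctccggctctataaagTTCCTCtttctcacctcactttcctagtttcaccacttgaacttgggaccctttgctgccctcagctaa

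The E-box letters CAGGTG, of the kind read by the B cell factor E2A, occurred in 2 of the 3 windows. They lay 5 bases after the start in Jchain and 154 bases before it in Cd79a, counted from the RefSeq start of each window, which for Cd79a lies downstream of the GENCODE start given above. Of the 32851 promoter windows of all genes, 20.2% held these letters. The ETS letters GAGGAA, of the kind read by PU.1, occurred 140 bases before the start in Cd79a and 19 bases before it in Irf4, and 28.3% of all windows held them. The octamer ATGCAAAT (1.74% of all windows), the interferon-stimulated response element (GAAA, any 2 bases, GAAA, 3.44%), the ETS-IRF composite element (GGAA, any 2 bases, GAAA, 2.72%) and the unfolded protein response element core TGACGTG (2.01%) were each in 0 of the 3 windows. Both strands were searched for every motif, and in Cd79a the E-box and ETS matches did not overlap. The Jchain window had 42.3% G and C, against 58.3% in Cd79a, 61% in Irf4 and a median of 52.7% over all windows.

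The question of the young and old groups is what differs in the kidney between 2 and 20 months. All 4 genes had higher values in every old mouse than in every young mouse. The ratio of the group means was 37.8 for Jchain, 14.7 for Cd79a, 11.5 for Mzb1 and 5.72 for Irf4. The order of the first genes rests on single young mice, since the ratio was 46.6 for Mzb1 without young mouse 3, where Jchain was at 34.6, and 79.3 for Jchain without young mouse 1. Leaving out any other mouse gave 26.4 to 51.6 for Jchain and 7.67 to 13.1 for Mzb1, and leaving out any of the 6 mice gave 11.8 to 20.1 for Cd79a and 4.67 to 6.5 for Irf4. Such a separation was seen with old mice higher in 65.6% of the 389 genes of that table, in 94.1% of the 271 of them with a higher mean in old mice, and in 92% of these once the immunoglobulin genes were left out. Those genes were listed because the authors had called them on the same mice, so the separation of the members is a description and carries no test. The median log2 difference, with a pseudocount of 1, was 2.02 over the 4 members and 1.14 over all 389 genes. It was 1.58 over the 271 genes higher in old mice and 3.71 over the 70 immunoglobulin genes. The members ran from 0.34 for Irf4 to 5.11 for Jchain, and the low values depend on the pseudocount.

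On this scale, which is per length of transcript, Jchain had the highest level of the 4 genes and the widest distance from young. It was at 12.28, 0.83 and 4.89 in young mice 1, 2 and 3, and at 302.23, 317.39 and 60.43 in old mice 1, 2 and 3. In the 3HB mice it was at 200.97, 202.94 and 218.03. Old mice 1 and 2 were the highest of all, old mouse 3 was far below every other mouse of 20 months, and the lowest old value was 4.92 times the highest young value. The group means were 6 ± 5.81 in young, 227 ± 144 in old and 207 ± 9.33 in the 3HB group (SD, n = 3 each). The log2 difference, taken here and below between the group means of log2(value + 1), was 5.11 for old minus young with a standard error (SE) of 1.14.

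Mzb1 was listed at 0 in young mouse 1 and was at 0.36 and 1.83 in young mice 2 and 3. The old mice were at 8, 11.16 and 6.02, and the 3HB mice were at 11.34, 8.95 and 11.10. All 6 mice of 20 months lay above the young mice, and old mouse 3 was again the lowest of them. The means were 0.73 ± 0.969 in young, 8.39 ± 2.59 in old and 10.5 ± 1.32 in the 3HB group (SD, n = 3 each), and the log2 difference of old minus young was 2.55 (SE 0.501), or 4.21 with a pseudocount of 0.1.

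Cd79a was at 0.21, 0.20 and 0.13 in the young mice, at 3.68, 3.55 and 0.70 in the old mice and at 2.37, 1.65 and 2.66 in the 3HB mice. Old mouse 3 lay closer to the young mice than to the other old mice. The means were 0.18 ± 0.0436 in young, 2.64 ± 1.68 in old and 2.23 ± 0.52 in the 3HB group (SD, n = 3 each). The log2 difference of old minus young was 1.49 (SE 0.481), and without old mouse 3 it was 1.97 (SE 0.0371). With a pseudocount of 0.1 it was 3.004, as the added 1 weighs on low values.

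Irf4 stayed below 1 in every mouse. The young mice were at 0.07, 0.04 and 0.07, the old mice at 0.47, 0.31 and 0.25 and the 3HB mice at 0.36, 0.47 and 0.69. Young and 20-month mice did not overlap, but the values are recorded in steps of 0.01, which is coarse beside a young mean of 0.06. The log2 difference of old minus young was 0.34 (SE 0.0708). With a pseudocount of 0.1 in place of 1 it was 1.45, since the added 1 exceeds every value of this gene.

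**Figure D1:**
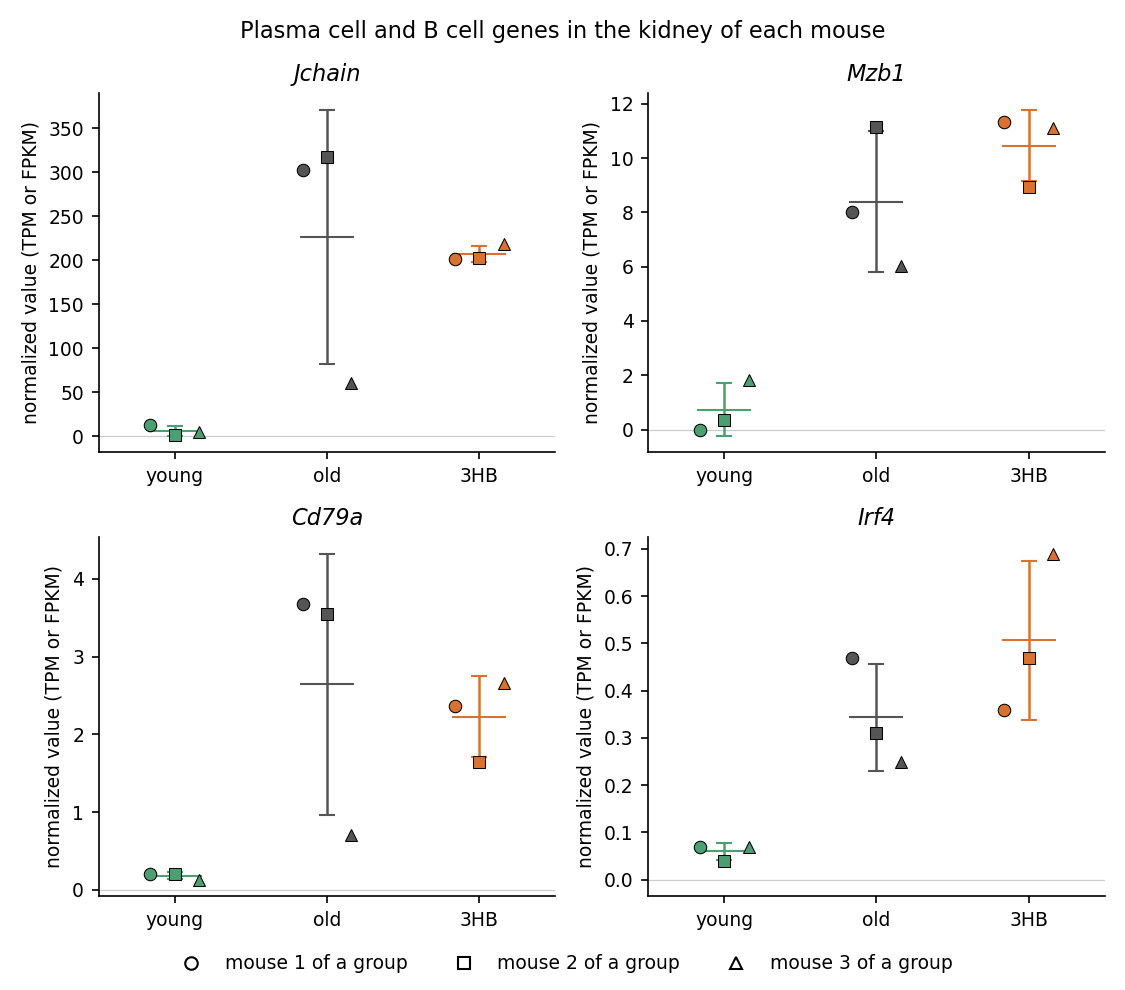
Values of Jchain, Mzb1, Cd79a and Irf4 (TPM or FPKM, linear axis from 0) in the 9 kidneys, with 1 symbol per mouse and the mean and SD of each group as a bar. All mice of 20 months lie above all young mice in each panel, and old mouse 3 (60.43 for Jchain, 0.70 for Cd79a) lies below every other mouse of 20 months.

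The 3HB mice are a second set of 20-month mice, though they were treated and are set against the same young mice. Whether their libraries entered the fit behind the calls of the young against old table is not given in the sources used here. In all 4 members the 3HB mice lay above the young mice without overlap. This held with 3HB mice higher for 61.2% of the 389 genes, for 87.5% of the 271 genes that were higher in old mice, and for 83.6% of these without the immunoglobulin genes, so the members were not set apart from the other listed genes by this count. The log2 difference of 3HB minus young was 5.31 for Jchain (SE 0.831), 2.86 for Mzb1 (SE 0.456), 1.44 for Cd79a (SE 0.143) and 0.5015 for Irf4 (SE 0.0927). With a pseudocount of 0.1 it was 4.56 for Mzb1, 3.04 for Cd79a and 1.89 for Irf4. The young mice are those on which the members had been called, so these differences too are a description and carry no test. The lowest 3HB value of Jchain was 16.4 times the highest young value, against 7.86 times for Cd79a, 5.14 times for Irf4 and 4.89 times for Mzb1.

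The old and 3HB groups ask what 3HB in the drinking water changed at the same age. The old mice are those on which the members had been called as higher than in young mice, and 0 of the members had been called for 3HB against old mice, so the comparison is not free of how the genes were listed. The values of the 3HB and old mice overlapped in all 4 members. Among the 389 genes of the age table, 7.2% showed 3HB mice above old mice without overlap and 6.17% showed them below. The log2 difference of 3HB minus old was 0.20 for Jchain (SE 0.781, p = 1, two-sided exact permutation test, as in the next sentences). It was 0.32 for Mzb1 (SE 0.25, p = 0.3 in the same exact test) and 0.16 for Irf4 (SE 0.115, p = 0.3 in the same exact test). For Cd79a it was -0.05 (SE 0.50, p = 1 in the same exact test). None of these passed 0.05, which 3 mice against 3 cannot reach since their smallest exact permutation p is 0.1, and for Jchain and Cd79a the standard error exceeded the difference. The sign for Jchain also depended on the measure. Its unlogged 3HB mean was 91.5% of the old mean, and the medians gave a log2 difference of -0.57.

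These values for Jchain and Cd79a depended on single mice. Without old mouse 3, the old mice were at 302.23 and 317.39 for Jchain and all 3HB mice lay below them, with a log2 difference of -0.58 (SE 0.051). For Cd79a the difference without this mouse was -0.53 (SE 0.141), and the groups again did not overlap. For Cd79a the sign was positive without old mouse 1 (0.20), without old mouse 2 (0.18), without 3HB mouse 2 (0.09) and with a pseudocount of 0.1 (0.037). The values of Jchain and Cd79a without old mouse 3 both gave p = 0.2 in the two-sided exact permutation test, the smallest that 2 mice against 3 allow. Mzb1 and Irf4 kept a positive difference without old mouse 3, of 0.13 (SE 0.239) and 0.11 (SE 0.124).

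**Figure D2:**
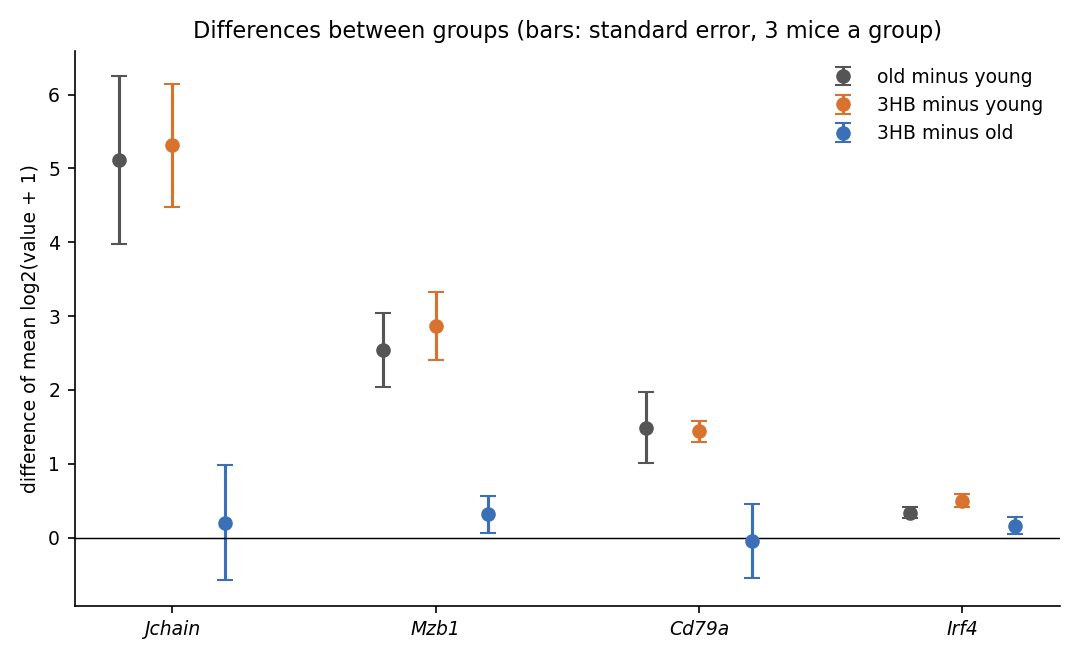
Differences between group means of log2(value + 1) for the 4 genes, with the standard error as a bar and 3 mice in each group. The differences of both 20-month groups from young lie side by side for each gene (5.11 and 5.31 for Jchain), and those of 3HB minus old lie near 0.

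The 3HB mice were close to each other for Jchain, with a highest value 1.08 times the lowest, while the old mice differed by 5.25 times. The same spread was 1.61 times in 3HB and 5.26 times in old mice for Cd79a. For Mzb1 it was 1.27 and 1.85 times, and for Irf4 it was 1.92 and 1.88 times. The wide spread of the old mice in Jchain and Cd79a came from old mouse 3, since old mice 1 and 2 differed by 1.05 times for Jchain and by 1.04 times for Cd79a. Old mouse 3 was the lowest old mouse in 4 of 4 members and in 77.1% of the 70 immunoglobulin genes. Among the other 197 genes of the table that were higher in old mice it was the lowest in 25.4%. What set this mouse apart was not tested.

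The members were also set against the immunoglobulin transcripts of the same kidney. The 70 immunoglobulin genes of the tables summed to 62.33 to 328.23 in young, 2023.18 to 6431.79 in old and 5197.58 to 7092.55 in 3HB mice. The Jchain value amounted to 2.99% to 5.18% of this sum in the 6 mice of 20 months and to 3.74%, 1.33% and 4.28% in the young mice, so the ranges overlapped. Mzb1 amounted to 0.124% to 0.298% of the sum at 20 months, and in young mice 2 and 3 it was at 0.578% and 1.60%. Cd79a took 0.0305% to 0.0579% of the sum at 20 months and 0.064% to 0.321% in young mice. Irf4 took 0.00506% to 0.0124% at 20 months and 0.0213% to 0.0642% in young mice. The shares of Cd79a and Irf4 at 20 months lay below those of the young mice, but the 70 genes of the sum were listed because they had been called between young and old mice, so nothing is read from shares between the ages.

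Between old and 3HB mice, the shares of the immunoglobulin sum overlapped in all 4 members when all mice were used. The log2 difference of 3HB minus old was -0.24 for Jchain (SE 0.266, two-sided exact permutation test, p = 0.5) and -0.38 for Cd79a (SE 0.297, same exact test, p = 0.3). It was -0.09 for Mzb1 (SE 0.393, same exact test, p = 0.8) and 0.12 for Irf4 (SE 0.401, same exact test, p = 0.9). Without old mouse 3 the differences were -0.48 for Jchain (SE 0.125) and -0.62 for Cd79a (SE 0.168), where all 3HB mice lay below both old mice and the exact permutation test gave its smallest p for 2 mice against 3, p = 0.2. They were 0.24 for Mzb1 (SE 0.312) and 0.46 for Irf4 (SE 0.302).

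Jchain ran closest with Igha, the constant region of the IgA heavy chain. Jchain amounted to 23.7%, 25.6% and 20.97% of the Igha value in the old mice and to 21.4%, 21.1% and 18.5% in the 3HB mice. Old mouse 3 was thus in the range of the others on this ratio although its Jchain value was low, because its Igha value of 288.20 was low as well against 1276.75 and 1241.12 in the other old mice. The coefficient of variation over the 6 mice was 11.2% for the ratio and 42.4% for Jchain itself, which was 22.9% without old mouse 3. For the inverse ratio, Igha over Jchain, it was 11.1% over the 6 mice and 12.3% without old mouse 3. In the young mice the ratio was 17.1%, 9.08% and 23.9%, where young mouse 2 rests on a Jchain value below 1.

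**Figure D3:**
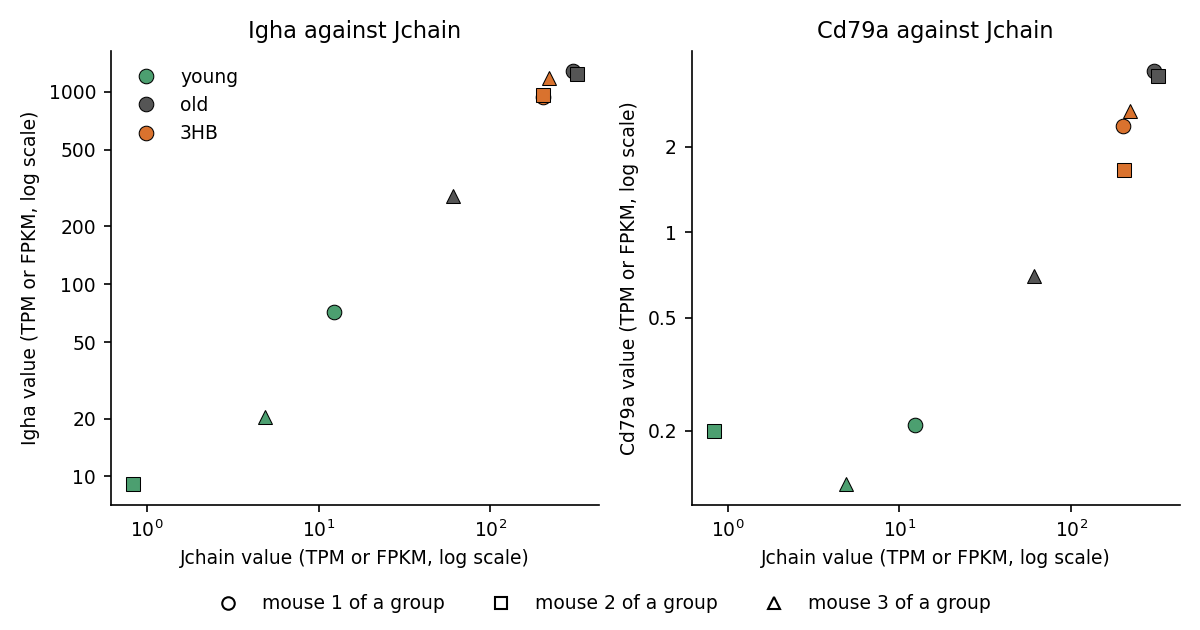
Igha (left) and Cd79a (right) against Jchain in the 9 kidneys, with both axes on a log scale (TPM or FPKM), 1 symbol per mouse and colours for the groups. Old mouse 3 lies between the young mice and the other mice of 20 months on all 3 genes, at 60.43 for Jchain, 288.20 for Igha and 0.70 for Cd79a.

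The ratio of Cd79a to Jchain varied less at 20 months than those of Mzb1 and Irf4. It was 1.22%, 1.12% and 1.16% of the Jchain value in old mice and 1.18%, 0.813% and 1.22% in 3HB mice. In young mice the ratio was 1.71%, 24.1% and 2.66%, above every mouse of 20 months. Young Cd79a values were only 0.13 to 0.21, and the ratio of young mouse 2 rests on a Jchain value of 0.83. Both genes had been called between these ages, so nothing is read from this ratio between the ages. Mzb1 was at 2.65%, 3.52% and 9.96% of Jchain in old mice and at 5.64%, 4.41% and 5.09% in 3HB mice. Irf4 was at 0.156%, 0.0977% and 0.414% of Jchain in old and at 0.179%, 0.232% and 0.316% in 3HB mice. Old mouse 3 had the highest ratio of Mzb1 and of Irf4 to Jchain of all mice of 20 months, and for Cd79a it lay inside the range. The coefficient of variation of the ratio over these 6 mice was 13.8% for Cd79a, 49.2% for Mzb1 and 49.8% for Irf4. Without old mouse 3 it was 15.4% for Cd79a, 28.2% for Mzb1 and 42.2% for Irf4. The coefficient of variation of the Cd79a value itself was 46.7% over the 6 mice and 30.4% without old mouse 3.

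With log2(value + 1) for both genes, the ratio to Jchain differed between 3HB and old mice by 0.12 for Mzb1 (SE 0.604, two-sided exact permutation test, p = 1). It differed by -0.25 for Cd79a (SE 0.324, same exact test, p = 0.6) and by -0.04 for Irf4 (SE 0.735, same exact test, p = 1). The direction for Irf4 came from the added 1, since the difference was 0.35 without a pseudocount (SE 0.658, same exact test, p = 0.6) and 0.24 with a pseudocount of 0.1. Without old mouse 3, and with the added 1, the difference was 0.703 for Mzb1 (SE 0.205, exact permutation p = 0.2), 0.05 for Cd79a (SE 0.133, exact permutation p = 1) and 0.69 for Irf4 (SE 0.131, exact permutation p = 0.2), so all 3 values depended on that mouse and those of Cd79a and Irf4 turned in sign.

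**Figure D4:**
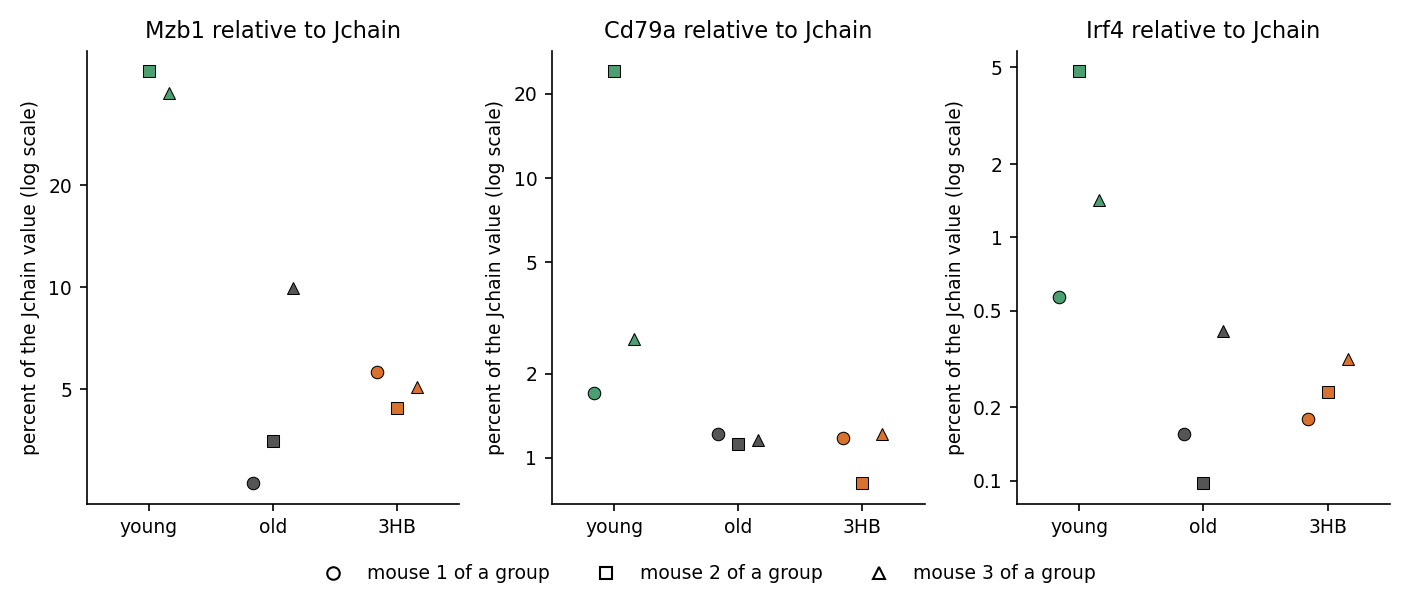
Value of Mzb1, Cd79a and Irf4 as a percentage of the Jchain value of the same kidney (log scale), with 1 symbol per mouse. Young mouse 1 has no symbol for Mzb1 because that gene was listed at 0 there. Cd79a lies between 0.813% and 1.22% in all mice of 20 months, while old mouse 3 stands at the top of these mice for Mzb1 (9.96%) and Irf4 (0.414%).

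The likeness of other genes to the members was measured by the Pearson correlation of log2(value + 1), as a description across mice that share the difference between 2 and 20 months. Over all 9 mice the genes most like Jchain were Igha (r = 0.997), Igkc (r = 0.992) and a kappa variable gene (r = 0.983). For Mzb1 they were a kappa variable gene (r = 0.981), Btf3l4b (r = 0.978) and Igkv1-117 (r = 0.978). For Cd79a they were Igkv4-50 (r = 0.984), another kappa variable gene (r = 0.963) and Ighv1-42 (r = 0.961), and for Irf4 they were Ighv1-19 (r = 0.962), Igkv4-74 (r = 0.960) and Ighv3-6 (r = 0.957). Btf3l4b was the only gene among these outside the immunoglobulins. Outside them, the transcriptional coactivator of B cells Pou2af1 was the nearest to Irf4 (r = 0.921) and the second nearest to Cd79a (r = 0.954), after the predicted gene Gm12138 (r = 0.955). The third for Cd79a was BC049352 (r = 0.947), and those after Pou2af1 for Irf4 were Spns2 (r = 0.920) and Lhx2 (r = 0.913). For Jchain the nearest outside immunoglobulins were Slc22a21 (r = 0.971), the unnamed ENSMUSG00000120144 (r = 0.968) and Apoh (r = 0.968), and for Mzb1 they were Btf3l4b (r = 0.978), Arl16 (r = 0.972) and Reep6 (r = 0.971).

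Within the 6 mice of 20 months, where the difference from young does not enter, Jchain was still nearest to Igha (r = 0.984), followed by Igkv4-50 (r = 0.961) and Iglc2 (r = 0.960). Cd79a was nearest to Igkv4-50 (r = 0.983), the unnamed ENSMUSG00000121418 (r = 0.967) and Jchain (r = 0.951). Mzb1 was nearest to Igkv4-53 (r = 0.986), Serpine2 (r = 0.965) and another kappa variable gene (r = 0.955), and Irf4 to Igkv12-46 (r = 0.931), another kappa variable gene (r = 0.913) and Ighv14-3 (r = 0.904). High values are easily met among the 449 or 450 genes ranked over so few mice. The median correlation over the 70 immunoglobulin genes was 0.652 for Jchain, 0.490 for Mzb1, 0.579 for Cd79a and 0.512 for Irf4, and over the other genes higher in old mice it was -0.32, -0.37, -0.28 and -0.19 in the same order. The correlation of Jchain was 0.727 with Mzb1 and 0.448 with Irf4. Without old mouse 3, over 5 mice, it was 0.890 with Cd79a and 0.863 with Igha, and it turned to -0.24 with Mzb1 and to -0.36 with Irf4.

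Other genes of the pathway were looked up in 4 lists, of B cell surface and receptor genes, transcription factors, antibody assembly and secretion genes, and plasma cell surface and survival genes. Of the 58 genes in these lists, 6 were in the age table, all higher in old mice, and 1 was in the 3HB table, higher with 3HB. The 6 were the 4 members, Pou2af1 and Tnfrsf17, so beyond the members the count adds 2 genes, and 271 of all 389 genes of the age table were higher in old mice. Of the 16 B cell surface and receptor genes, Cd79a alone was listed. A gene that is not listed was not called, and its level is not known from these tables.

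Pou2af1 was at 0.19, 0.13 and 0.05 in young, 1.64, 1.10 and 0.62 in old and 0.81, 0.86 and 1.42 in 3HB mice. The old and 3HB mice overlapped, with a log2 difference of -0.05 (SE 0.243, two-sided exact permutation test, p = 0.9). Tnfrsf17, which encodes the plasma cell survival receptor BCMA, was listed at 0 in all 3 young mice. It was at 1.13, 0.88 and 0.72 in old and at 1.15, 0.83 and 0.50 in 3HB mice. Old mouse 3 was again the lowest old mouse for both genes.

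Hsp90b1, a chaperone of the endoplasmic reticulum that all cells use, was the listed gene in the 3HB table. It was at 148.60, 150.55 and 140.28 in old and at 242.62, 237.98 and 238.87 in 3HB mice, with 162.89, 87.72 and 200.68 in young mice. The 3HB mice lay above the old mice without overlap, the contrast for which it had been called, while young and old mice overlapped.

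Pigr, the receptor that carries J chain-linked IgA and IgM across epithelial cells, was in the age table as the only one of 9 genes of antibody transport and Fc receptors. It was at 23.76, 21.41 and 52.70 in young, at 180.26, 220.75 and 549.00 in old and at 138.07, 293.49 and 132.64 in 3HB mice. Old mouse 3, the lowest of the old mice for Jchain, was the highest of all mice for Pigr. Over the 6 mice of 20 months the correlation of Pigr with Jchain was -0.75, and over all 9 it was 0.78. The negative value rested on old mouse 3, since over the other 5 mice of 20 months the correlation was 0.17.

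Markers of other immune cells were looked up beside the members. Of 18 genes of T cells and NK cells, Cd8a was in the age table, at 4.22, 0.47 and 5.37 in young and 0.80, 0.51 and 0.33 in old mice, with 0.71, 0.47 and 0.94 in 3HB mice. It was thus higher in young mice 1 and 3 and overlapped with old mice through young mouse 2. Of 14 macrophage and dendritic cell genes, Lyz2 was in the age table, at 7.54 to 8.69 in young, 22.92 to 72.01 in old and 34.25 to 42.87 in 3HB mice. Of 10 genes of lymphoid tissue, 0 were in either table. Of 12 kidney epithelium genes, Lrp2, the endocytic receptor megalin of the proximal tubule, was listed in the 3HB table, at 68.59 to 116.6 in young, 87.86 to 105.3 in old and 143 to 154.52 in 3HB mice. The 3HB mice lay above the old mice without overlap, with a log2 difference of 0.66 (SE 0.0884), the contrast for which the gene had been called. Of 11 skeletal muscle genes, 0 were in either table. The labels name kidney as the tissue, as do the results and the data statement of the study, while its methods paragraph names muscle. These counts of called list genes do not decide between them. The part of lymphoid tissue, of other immune cells or of the kidney epithelium in the values of the members was not tested.

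**Figure D5:**
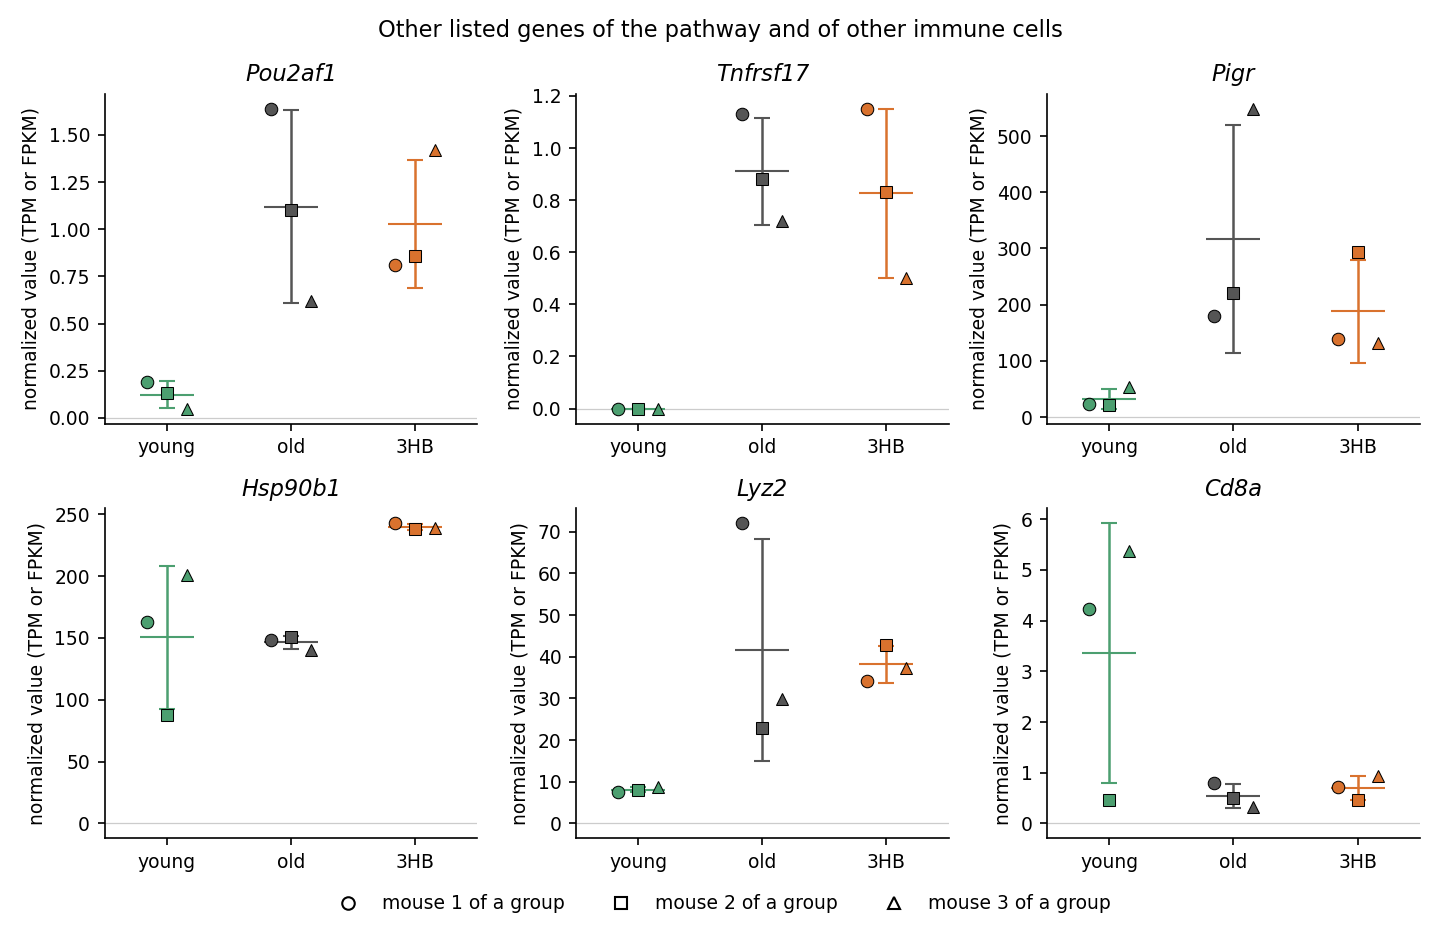
Values (TPM or FPKM, linear axes from 0) of 6 further listed genes in the 9 kidneys, with 1 symbol per mouse and the mean and SD of each group as a bar. Pou2af1 and Tnfrsf17 separate young from 20-month mice as the members do, Pigr is highest in old mouse 3 (549.00), Hsp90b1 is apart in the 3HB mice, and Cd8a is highest in young mice 1 and 3.

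In the annotation that the tables carry, the members shared few identical terms. Jchain had 21 GO terms, Irf4 had 23, Cd79a had 14 and Mzb1 had 10. Of these, terms naming B cells or immunoglobulins numbered 7 for Jchain, 5 for Cd79a, 2 for Mzb1 and 0 for Irf4. Jchain and Cd79a shared 2 terms (adaptive immune response and protein homodimerization activity), and each of the other 5 pairs shared 0. KEGG placed Cd79a in the B cell receptor signalling and primary immunodeficiency pathways and Irf4 in Th17 cell differentiation, and it placed Jchain and Mzb1 in none.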

How the data were processed

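Kidney RNA of 9 mice was read from both ends of each fragment, at 150 bp per end. The submitters' processing notes name GRCm38, CASAVA, HISAT2 and StringTie, and the test and threshold behind the calls of genes are not given in the sources used here, where a general statistics section is not tied to the sequencing. What the authors deposited are 2 tables with normalized values of each mouse (TPM or FPKM, not stated which), limited to the genes they had called, so no fit across all genes or other normalization could be made and depth is unknown. The 13 genes in both tables were used once.

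Values were compared as log2(value + 1), with a pseudocount of 1, and with two-sided exact permutation tests over the 20 ways of dividing 6 mice, given only for 3HB against old mice, a comparison that shares the old mice with the calls by which the members were listed. Which mice shared a cage or were processed together was not used here. The p-values rank the observed difference among these divisions and cannot set apart a cage or batch shared within a group. Precision rests on 3 mice a group. Named genes are the members, list genes found in a table, and the 3 most correlated genes per member among genes whose highest group mean reached 1. The comparison of immunoglobulin classes was chosen after the values were seen. Members and lists were chosen with earlier results of these data known. The code of the permutation, correlation and motif steps was checked on made-up inputs with known answers, where 6 of 6 checks passed. These checks do not test the steps at the noise of 3 mice a group. Alternatives covered the pseudocount, medians, immunoglobulin sums, pairing and leaving out mice. Scripts ran in Python 3.11.15 with scipy 1.17.1, pandas 2.3.3 and numpy 2.4.6, and figures were drawn with matplotlib 3.10.9.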

Additional observations from a re-analysis of the deposited data

How the results depend on the processing

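The members kept their direction against young mice under every alternative run, and leaving out each mouse gave log2 differences of old minus young of 4.36 to 5.89 for Jchain, 2.22 to 2.97 for Mzb1, 1.24 to 1.97 for Cd79a and 0.27 to 0.39 for Irf4. With a pseudocount of 0.1 the same differences were 4.21 for Mzb1, 3.004 for Cd79a and 1.45 for Irf4, because the smaller constant weighs less on low values. The limit on a group mean of at least 1 leaves out Irf4 and changes no other value. For 3HB minus old, the direction depended on the setting for Jchain, which was -0.57 with medians and -0.58 to 0.61 when mice were left out, and for Cd79a, which was 0.037 with a pseudocount of 0.1 and -0.53 to 0.20 when mice were left out. Mzb1 (0.13 to 0.52) and Irf4 (0.077 to 0.23) stayed above 0 when mice were left out, and Irf4 was 0.45 with a pseudocount of 0.1. Relative to the immunoglobulin sum, Irf4 turned to -0.28 with the median of the immunoglobulin genes, and leaving out mice gave -0.39 to 0.24 for Mzb1, -0.18 to 0.46 for Irf4, -0.48 to -0.08 for Jchain and -0.62 to -0.23 for Cd79a. Relative to Jchain, leaving out mice gave -0.27 to 0.703 for Mzb1, -0.43 to 0.048 for Cd79a and -0.46 to 0.69 for Irf4, which was 0.24 with a pseudocount of 0.1 and 0.35 with none, an alternative added after the values were seen. Without old mouse 3, also added later, the correlation of Mzb1 with Irf4 over the mice of 20 months turned from 0.41 to -0.13, that of Jchain with Mzb1 to -0.24, that of Jchain with Irf4 to -0.36 and that of Jchain with Pigr from -0.75 to 0.17. The cause of these turns beyond the mouse left out was not tested. Same-numbered mice correlated in their deviations above 0.1 in 2 of 9 pairs (range -0.24 to 0.16). With 3 mice a group and only called genes, this cannot show whether the replicate numbers pair the mice. With the replicate number as a block the differences are the same by construction (5.11 for Jchain, old minus young), and the exact permutation p of the 3 pairs is at least 0.25, so no call could change. Matching the lists by identifier or older symbol gave the same counts.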

Other observations

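The constant region genes of the heavy chain did not share one order among the old mice. Igha was at 1276.75, 1241.12 and 288.20 in old mice 1, 2 and 3, with old mouse 3 far below the others as for Jchain. Ighg1 ran the other way, at 3.41, 5.44 and 36.94, and Ighg2c was highest in old mouse 3 as well, at 6.74, 4.27 and 12.5. Ighm, whose pentamers also contain the J chain, was at 21.07, 7.86 and 14.93, so old mouse 3 was not its lowest mouse. Ighg2b was at 28.91, 18.36 and 22.53. Mzb1, which serves antibody secretion of any class, was at 8, 11.16 and 6.02 in the same mice. In the 3HB mice Igha lay between 940.78 and 1177.17, and Ighg1 was at 13.25, 17.86 and 66.89. These values were looked at after those of Jchain had been seen, a single mouse carries the contrast, and heavy chain constant genes resemble each other in sequence, so no test was made.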
